A study of Mus musculus with 6 samples.

Results

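The Ly49 receptors are lectin-like proteins on the surface of mouse natural killer (NK) cells, and 10 genes that encode them, Klra1 to Klra10, were examined by name among the 25690 gene symbols that were quantified. The RNA came from CD27SP NK cells, sorted from the bone marrow (BM) as NK1.1+CD27+CD11b− cells, which are NK cells at an early step of maturation. Ncr1cre Myc fl/fl mice, in which Cre is made from the Ncr1 locus and deletes floxed Myc once a cell starts to make NKp46, were compared with Ncr1cre Myc wt/wt mice, which carry the same Cre and intact Myc, on a C57BL/6 background. Each genotype had 3 libraries, numbered 1, 2 and 4, and the labels do not say that each library came from a separate mouse, so the p-values measure the spread between these libraries only. Cre becomes active only when NKp46 appears, so cells of this subset can have lost Myc recently.

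Most Ly49 receptors are inhibitory. They bind MHC class I molecules on other cells and, through a tyrosine motif in their tail, recruit the phosphatase SHP-1, which holds back NK cell attack on healthy cells. Ly49D and Ly49H are activating: they have no such motif and signal through the adaptors DAP12 and DAP10, and Ly49H recognizes a protein of mouse cytomegalovirus. Each NK cell switches on a small and seemingly random subset of the genes as it matures, so that a population holds many combinations. In the mouse GRCm38 assembly, 9 of the 10 genes lie on the minus strand of chromosome 6 between Klra5, which starts the stretch, and Klra1 (chr6:129898996-130386874), and Klra2 lies apart at chr6:131219223-131247362.

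The estimated counts of all genes summed to 8101219 in wt/wt library 1 and to between 54550907 and 64962491 in the other 5 libraries, so the weakly expressed members rest on few counts in wt/wt library 1 (4 counts for Klra2 and 60 for Klra5). Myc itself stood at 200.5, 183 and 164 CPM (counts scaled to a common depth per library) in wt/wt libraries 1, 2 and 4 and at 61.5, 64.6 and 76.5 CPM in the fl/fl libraries, a log2 fold change of −1.44 ± 0.15 (SE; edgeR adjusted p = 0.00189), which follows the labels. Of the 7 NK cell markers, 0 passed the threshold used here (adjusted p below 0.01 and a log2 fold change of at least 0.5). Il2rb (2680 to 4399 CPM) and Klrb1c (1555 to 2230 CPM), the most abundant, were high in all 6 libraries. So was Ncr1 (723 to 1016 CPM), named because its locus carries Cre. Il2rb was higher in fl/fl without overlap, at 3851 to 4399 CPM against 2680 to 3222.5 CPM (log2 fold change 0.47 ± 0.15, SE, edgeR adjusted p = 0.0852). Gzma, a granule protease and the next in abundance, stood at 1516 to 2024 CPM in wt/wt and at 900.5 to 1380 CPM in fl/fl libraries, without overlap (log2 fold change −0.64 ± 0.18, SE; edgeR adjusted p = 0.0564). Prf1, a granule protein named after its values were seen, was higher in fl/fl without overlap (log2 fold change 0.93 ± 0.28, SE, edgeR adjusted p = 0.0771). By fitted difference, 2 of the 7 NK cell markers were lower and 5 higher in fl/fl. Markers of several other cell types passed as higher in fl/fl, where 1.28% of all tested genes did: 7 of 7 basophil and mast cell genes, 6 of 7 granulocyte-monocyte progenitor genes, 4 of 7 monocyte genes, 3 of 7 erythroid genes, 2 of 7 plasmacytoid dendritic cell genes, and 1 of 7 each for neutrophils and for platelets and megakaryocytes. For T cells, B cells and type 1 innate lymphoid cells the number was 0 of 7, and in all these lists 0 genes passed as lower. The summed level of the granulocyte-monocyte progenitor list, with Mpo, Elane and Cd34 the most abundant over all 6 libraries, ran from 92.1 to 138 CPM in wt/wt and from 560.4 to 905 CPM in fl/fl libraries, and that of the basophil and mast cell list, with Prss34, Mcpt8 and Cpa3 the most abundant over all 6 libraries, from 12.6 to 15.97 CPM and from 111 to 322 CPM. Since these are bulk samples, fewer cells that express a Ly49 gene and less RNA of it per cell cannot be told apart. The part of the other cell types in the Ly49 values was not tested.

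Because the Ly49 genes arose by duplication, stretches of their transcripts are the same in several members, and reads from these stretches cannot be assigned to 1 gene by sequence alone. Klra3, Klra10, Klra9 and Klra8 form the closest group. The longest identical run between the coding sequences of the Klra3-202 and Klra10-201 transcripts is 121 bases, longer than the 100-base reads. Its first 100 bases are shown with the most similar stretch in 3 other members, to display how much sequence separates an ambiguous read from an assignable one. In Klra3 the stretch spans exons 6 and 7 (chr6:130323687-130327109, minus strand, GRCm38, with the intron between them left out of the sequence). Capitals mark the bases that differ from Klra3.
Klra3: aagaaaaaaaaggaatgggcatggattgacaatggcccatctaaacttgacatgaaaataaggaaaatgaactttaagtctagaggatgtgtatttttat
Klra10: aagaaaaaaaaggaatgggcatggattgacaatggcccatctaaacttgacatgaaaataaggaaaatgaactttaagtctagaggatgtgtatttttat
Klra9: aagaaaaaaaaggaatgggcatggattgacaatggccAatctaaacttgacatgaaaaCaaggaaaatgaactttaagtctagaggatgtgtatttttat
Klra8: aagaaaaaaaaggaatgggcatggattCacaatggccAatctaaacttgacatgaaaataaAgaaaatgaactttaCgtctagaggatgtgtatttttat
Klra4: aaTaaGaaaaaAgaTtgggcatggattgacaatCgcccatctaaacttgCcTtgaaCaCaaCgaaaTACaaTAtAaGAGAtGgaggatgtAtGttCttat

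Over these 100 bases, Klra10 had 0 differences from Klra3, Klra9 had 2, Klra8 had 4 and Klra4 had 24. Across the longest transcript of each member, the share of 100-base windows found unchanged in another gene was 14.4% for Klra8, 5.25% for Klra10, 4.41% for Klra9, 2.29% for Klra7 and 1.93% for Klra3, and it was 0 for Klra1, Klra2, Klra4, Klra5 and Klra6. Most of this sharing was with pseudogenes, whose levels were not analysed here: Klra8 shared 148 windows with Klra14-ps (13.7% of its windows), Klra9 shared 45 and Klra10 shared 16 with Klra11-ps, and Klra7 shared 23 with Klra13-ps. Between members, Klra3 and Klra10 shared 22 windows of 100 bases and Klra8 and Klra9 shared 7, and no other pair shared any. With windows of 31 bases, a length often used to assign reads by short words, the shares rose to 65.1% for Klra10, 58.8% for Klra9, 55.0% for Klra8 and 44.5% for Klra3, against 1.75% for Klra2 and 8.06% for Klra1. At read length, the division of counts is therefore uncertain between Klra3 and Klra10 and, to a smaller extent, between Klra8 and Klra9, and the levels of Klra7, Klra8, Klra9 and Klra10 may hold reads of the pseudogenes, whereas no 100-base window of Klra1, Klra2, Klra4, Klra5 or Klra6 matches another gene.

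**Figure D1:**
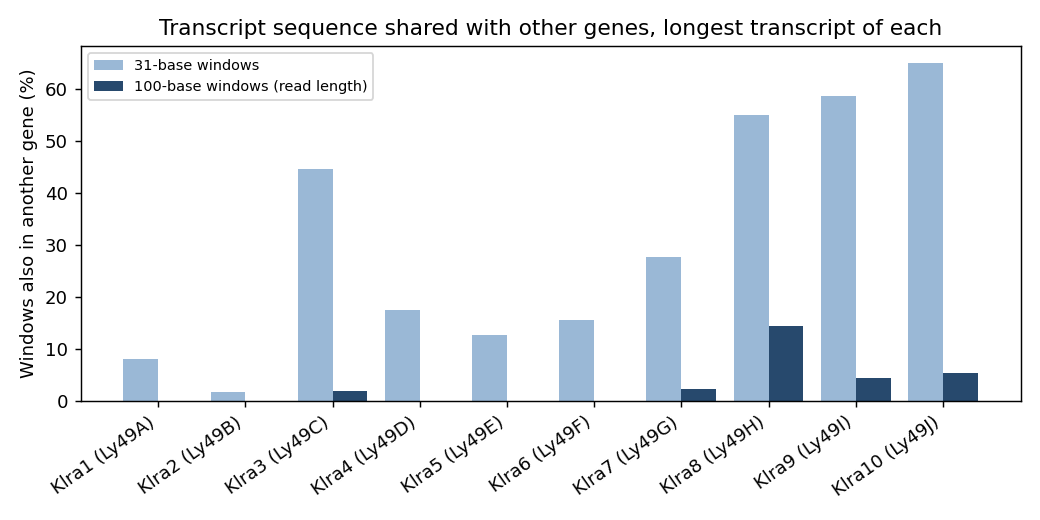
Share of windows (%, vertical axis) in the longest transcript of each Ly49 gene that also occur in another gene, for windows of 31 bases (light bars) and of 100 bases, the read length (dark bars). Klra8, Klra9, Klra10 and Klra3 share the most 31-base windows, and Klra8 shares the most 100-base windows (14.4%).

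Taken per transcript length, as TPM (a transcript's share of all transcripts, corrected for length), the members covered a wide range of levels in the wt/wt libraries. Klra7 was highest at 1021 ± 108 TPM (SD, n = 3), followed by Klra4 at 707 ± 90.1, Klra8 at 577 ± 134, Klra9 at 260.1 ± 29.7, Klra3 at 201 ± 54.0, Klra1 at 170 ± 56.0, Klra10 at 64.7 ± 12.3, Klra6 at 28.7 ± 7.94, Klra5 at 10.8 ± 1.10 and Klra2 at 0.340 ± 0.048 TPM. Neighbours in this order whose libraries overlapped were Klra4 and Klra8, Klra9 and Klra3, and Klra3 and Klra1. In the fl/fl libraries the order was the same apart from the lower end, where Klra5 (22.8 ± 14.1 TPM) stood above Klra6 (16.8 ± 1.93 TPM) by mean, with overlapping libraries. Klra5 was above Klra6 in fl/fl library 4 only (39.0 against 16.6 TPM). In that genotype Klra8 and Klra9 overlapped as well, as did Klra4 and Klra8. Transcripts of Ly49G, Ly49D and Ly49H were thus the most abundant in these cells, and those of Ly49E and Ly49B were scarce.

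**Figure D2:**
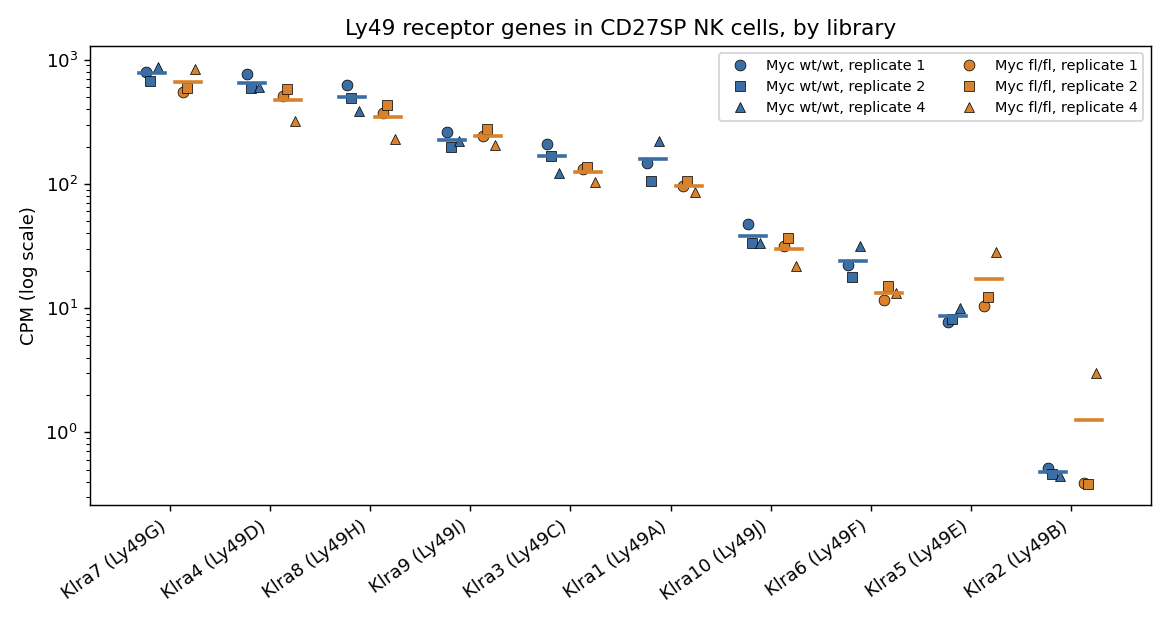
CPM on a log scale (vertical axis) of each Ly49 gene in the 3 Myc wt/wt libraries (blue) and the 3 Myc fl/fl libraries (orange); each symbol is 1 library and the bar is the mean. Klra1, Klra4 and Klra6 lie lower and Klra5 higher in fl/fl without overlap, and fl/fl library 4 holds the highest Klra5 and Klra2 and the lowest Klra1, Klra3, Klra4, Klra8 and Klra10.

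The comparison asked whether the expression of these receptors differed between the sorted cells of the genotypes. The fl/fl libraries held 37.0% of the wt/wt mean of Myc RNA, so not every cell in them is shown to have lost Myc. No member passed the threshold: 0 of 10 were past an adjusted p of 0.01 with a log2 fold change of 0.5, where 2.15% of the 15474 tested genes were (0.872% as lower and 1.28% as higher in fl/fl), and 0 of 10 were below an adjusted p of 0.05, where 7.83% were (3.38% lower and 4.45% higher; edgeR quasi-likelihood test, Benjamini-Hochberg adjustment over all tested genes). The unadjusted p was below 0.05 for 6 of 10 members (60.0%, against 22.5% of all tested genes), of which 5 were lower (Klra1, Klra3, Klra4, Klra6 and Klra8) and 1 higher (Klra5) in fl/fl, where 10.2% of all tested genes were lower and 12.4% higher. DESeq2 and limma-trend also placed 0 members past the threshold and 6 at an unadjusted p below 0.05, and DESeq2 placed 4 members below an adjusted p of 0.05 (Klra1, Klra5, Klra6 and Klra8) where limma-trend placed 0. The fitted differences were below 0 for 7 members and above 0 for 3, with a median log2 fold change of −0.37 against 0.014 over all tested genes, whose quartiles were −0.26 and 0.31. The CPM of the genotypes did not overlap for 4 of 10 members (40.0%, against 31.3% of all tested genes), with 3 lower in fl/fl (Klra1, Klra4 and Klra6, against 15.1% of all) and 1 higher (Klra5, against 16.2%). The smallest adjusted p of a member was 0.0544.

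**Figure D3:**
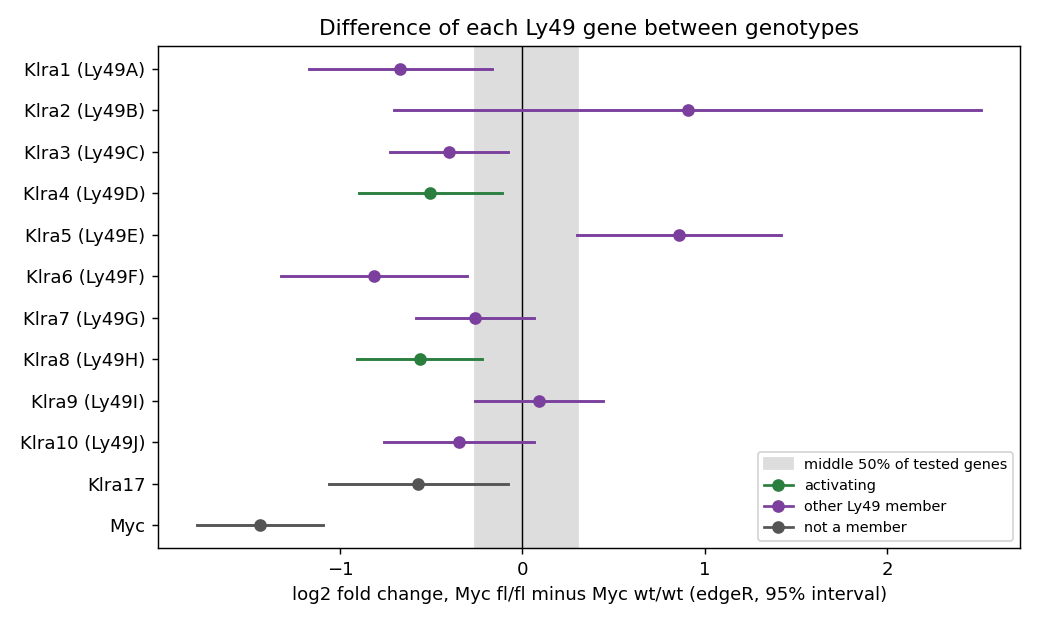
Log2 fold change of Myc fl/fl against Myc wt/wt (horizontal axis; edgeR, points) with its 95% interval (bars) for the 10 Ly49 genes, the related gene Klra17 and Myc; the grey band holds the middle 50% of all tested genes. The intervals of Klra2, Klra7, Klra9 and Klra10 include 0, and Myc lies below every Ly49 gene.

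Of the activating receptors, Klra4, which encodes Ly49D, stood at 764, 590 and 600 CPM in wt/wt libraries 1, 2 and 4 and at 510, 580 and 321 CPM in the fl/fl libraries. The genotypes did not overlap in CPM, but fl/fl library 2 lay just below the lowest wt/wt library. Fl/fl library 4 was far below the rest. In TPM the genotypes overlapped, with fl/fl library 2 at 653 and wt/wt library 4 at 640 TPM. The log2 fold change was −0.50 ± 0.18 (SE; 95% interval −0.90 to −0.11; edgeR adjusted p = 0.118). Klra8, which encodes Ly49H, stood at 629, 497 and 386 CPM in wt/wt and at 376, 432 and 231 CPM in fl/fl libraries. These values overlapped, since fl/fl library 2 was above wt/wt library 4. In the fit as reported Klra8 had the smallest adjusted p of the family, with a log2 fold change of −0.56 ± 0.15 (SE; 95% interval −0.91 to −0.22; edgeR adjusted p = 0.0544). With no replicate block it was −0.54 ± 0.24 (SE, edgeR adjusted p = 0.187), and Klra6 had the smallest adjusted p. With fl/fl library 4 left out and no replicate block, the log2 fold change was −0.25 for Klra4 and −0.31 for Klra8.

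The ratio of Klra8 to Klra4 in TPM was 0.866, 0.888 and 0.678 in the wt/wt libraries and 0.774, 0.783 and 0.758 in the fl/fl libraries, and the genotypes overlapped. Together they made up 42.1 ± 4.69% of the family's summed TPM in wt/wt and 37.7 ± 9.14% in fl/fl (SD, n = 3). By library (1, 2 and 4), the share was 45.0%, 44.6% and 36.7% in wt/wt. It was 42.5%, 43.4% and 27.2% in fl/fl. It was lowest in library 4 of each genotype, and lower in fl/fl within each of the 3 numbers, which are not shown to pair the libraries, while the libraries of the genotypes overlapped. The adaptors that carry their signal were measured too, and are named here for their role. Tyrobp, which encodes DAP12, had a log2 fold change of −0.01 ± 0.14 (SE; edgeR adjusted p = 0.978). Hcst, which encodes DAP10, had a log2 fold change of −0.44 ± 0.21 (SE; edgeR adjusted p = 0.259), with wt/wt library 1 at 296 CPM and the other 5 libraries between 130 and 156 CPM.

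Among the inhibitory receptors, Klra3 and Klra9 encode Ly49C and Ly49I, which bind the H-2Kb molecule of C57BL/6 mice. Klra3 stood at 210.5, 168 and 123 CPM in wt/wt and at 131, 137 and 104 CPM in fl/fl libraries, with a log2 fold change of −0.40 ± 0.14 (SE; 95% interval −0.72 to −0.08; edgeR adjusted p = 0.127). Wt/wt library 4 fell among the fl/fl libraries, and with wt/wt library 1 left out and no replicate block the log2 fold change of Klra3 was −0.24. Klra9 stood at 263, 199 and 220.2 CPM in wt/wt and at 244, 277 and 205 CPM in fl/fl libraries, with a log2 fold change of 0.09 ± 0.16 (SE; 95% interval −0.26 to 0.44; edgeR adjusted p = 0.806). The genotypes were intermixed for Klra9.

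Klra9 thus held a larger share of the family. It made up 8.77%, 8.43% and 8.43% of the family's TPM in the wt/wt libraries and 12.0%, 12.3% and 10.4% in the fl/fl libraries, without overlap. A share depends on the levels of the other members as well. The share of Klra5 was also higher in fl/fl without overlap (0.298% to 0.411% in wt/wt and 0.556% to 1.64% in fl/fl). That of Klra6 was lower (0.781% to 1.29% in wt/wt and 0.607% to 0.704% in fl/fl). The ratio of Klra9 to Klra3 in TPM was 1.18, 1.14 and 1.73 in wt/wt and 1.79, 1.95 and 1.89 in fl/fl libraries. No 100-base window was common to Klra3 and Klra9, but Klra9-202 shared 31.5% of its 31-base windows with Klra3. Summed over Klra3, Klra9 and Klra10, the level was 433 ± 77.4 CPM in wt/wt and 397 ± 60.4 CPM in fl/fl (SD, n = 3), a difference within the spread. Klra10 itself, which encodes Ly49J, stood at 47.3, 33.6 and 33.3 CPM in wt/wt and at 31.9, 36.7 and 22.0 CPM in fl/fl libraries, with overlap and a log2 fold change of −0.35 ± 0.18 (SE; 95% interval −0.76 to 0.07; edgeR adjusted p = 0.309).

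**Figure D4:**
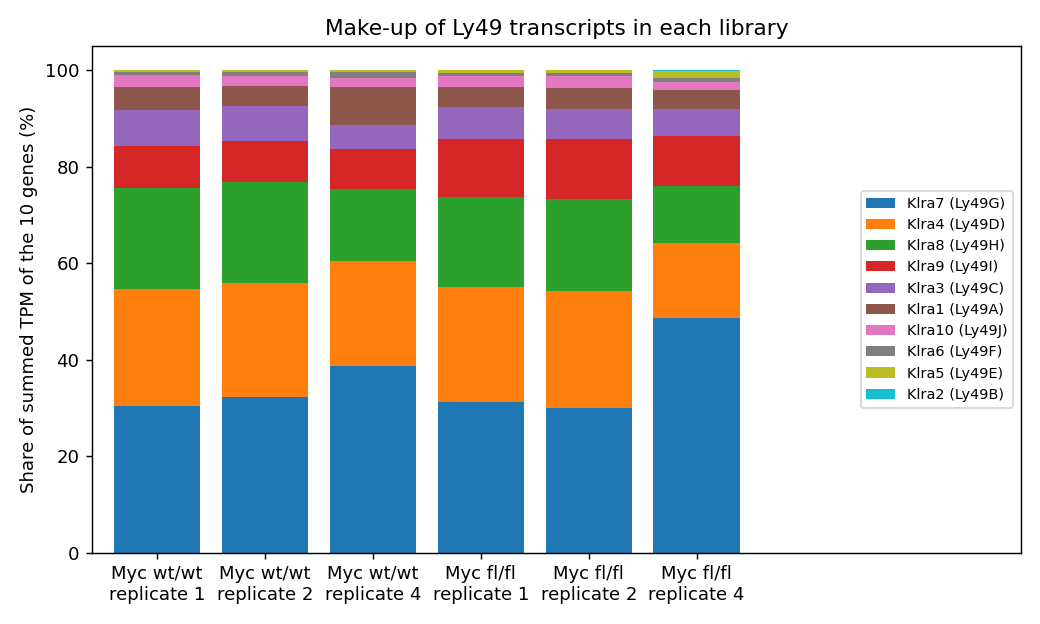
Share of the summed TPM of the 10 Ly49 genes (%, vertical axis) held by each gene in each library (horizontal axis). Klra7 takes 48.7% in Myc fl/fl replicate 4 and between 29.9% and 38.6% in the others, and Klra9 takes more in each fl/fl library (10.4% to 12.3%) than in any wt/wt library (8.43% to 8.77%).

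Klra1 and Klra7 encode Ly49A and Ly49G, receptors known mainly for binding H-2Dd, a molecule that C57BL/6 mice do not carry. Klra1 stood at 149, 106.1 and 223 CPM in wt/wt and at 95.5, 105.8 and 86.6 CPM in fl/fl libraries. The fl/fl libraries were close together and the wt/wt libraries were not. The groups did not overlap, but wt/wt library 2 and fl/fl library 2 were nearly equal. The log2 fold change was −0.67 ± 0.22 (SE; 95% interval −1.17 to −0.17; edgeR adjusted p = 0.105), and it moved to −0.996 without replicate 2 of both genotypes and to −0.34 without replicate 4. Klra7, the most abundant member, stood at 794, 670.1 and 878 CPM in wt/wt and at 550, 592 and 840 CPM in fl/fl libraries. Fl/fl libraries 1 and 2 were the lowest of the 6, and fl/fl library 4 lay among the wt/wt libraries. Its log2 fold change was −0.26 ± 0.14 (SE; 95% interval −0.58 to 0.07; edgeR adjusted p = 0.336).

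Klra6, which encodes Ly49F, had the largest negative difference of the family. It stood at 22.3, 17.8 and 31.7 CPM in wt/wt and at 11.6, 15.1 and 13.1 CPM in fl/fl libraries, and the groups did not overlap. The mean in fl/fl was 55.5% of that in wt/wt, and the log2 fold change was −0.82 ± 0.23 (SE; 95% interval −1.32 to −0.31; edgeR adjusted p = 0.0594). With no replicate block, Klra6 was the single member below an adjusted p of 0.05 (edgeR adjusted p = 0.0404).

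Klra5 and Klra2 were the weakest members in the wt/wt libraries. Like Klra9, they had fitted log2 fold changes above 0. Klra5 encodes Ly49E, known from fetal NK cells and tissue-resident innate lymphocytes. It stood at 7.80, 8.10 and 10.1 CPM in wt/wt and at 10.4, 12.4 and 28.3 CPM in fl/fl libraries. The groups did not overlap, yet wt/wt library 4 and fl/fl library 1 were close, and fl/fl library 4 was far above the rest. The log2 fold change was 0.86 ± 0.25 (SE; 95% interval 0.30 to 1.42; edgeR adjusted p = 0.0689), and it was 0.50 without replicate 4 of both genotypes and 0.39 without fl/fl library 4 alone and no replicate block. Klra2 encodes Ly49B, known from myeloid cells. It stood at 0.520, 0.461 and 0.443 CPM in wt/wt and at 0.391, 0.384 and 2.98 CPM in fl/fl libraries, which are 4, 26, 29, 23, 21 and 178 counts. Its log2 fold change of 0.91 ± 0.72 (SE; 95% interval −0.70 to 2.51; edgeR adjusted p = 0.521) came from fl/fl library 4 and was −0.34 without replicate 4. In that library the granulocyte-monocyte progenitor list was at its highest, 905 CPM, against 594 and 560.4 CPM in fl/fl libraries 1 and 2, and the basophil and mast cell list was the lowest of the 3 fl/fl libraries, 111 CPM against 265 and 322 CPM. Whether either list bears on Klra2 or Klra5 was not tested.

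Fl/fl library 4 also stood apart in markers of NK cell state. The summed level of the 7 mature NK cell markers was 1770 CPM there, against 604 and 796 CPM in the other fl/fl libraries and 410 to 521 CPM in wt/wt. Most of that sum was Gzmb, a granule protease of armed NK cells, at 1488 CPM there, against 472 and 358 CPM in the other fl/fl libraries and 166 to 212 CPM in wt/wt. Of the list, 3 genes (Gzmb, Klrg1 and Itgam) were at their highest in that library and 2 (S1pr5 and Zeb2) at their lowest. Prf1, the pore-forming granule protein, was at 1987 CPM there and between 498 and 891 CPM in the other 5 libraries. The summed level of the 7 immature NK cell markers was 1818 CPM, the lowest of the 6 libraries, with Tcf7 and Emb at their lowest. Of the 7 markers of type 1 innate lymphoid cells, 3 (Itga1, Cxcr6 and Zfp683) were at their highest there and 1 (Tmem176a) at its lowest, and their sum of 370 CPM was close to the 366 CPM of fl/fl library 2. Itga1, an integrin of tissue-resident innate lymphocytes, was at 65.6 CPM there and between 9.88 and 19.0 CPM in the other 5 libraries. The genes named here were singled out after their values were seen, and the part of NK cell state in the Ly49 values was not tested. Of the Ly49 members, Klra2 and Klra5 were highest in fl/fl library 4, and 5 (Klra1, Klra3, Klra4, Klra8 and Klra10) were lowest there.

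**Figure D5:**
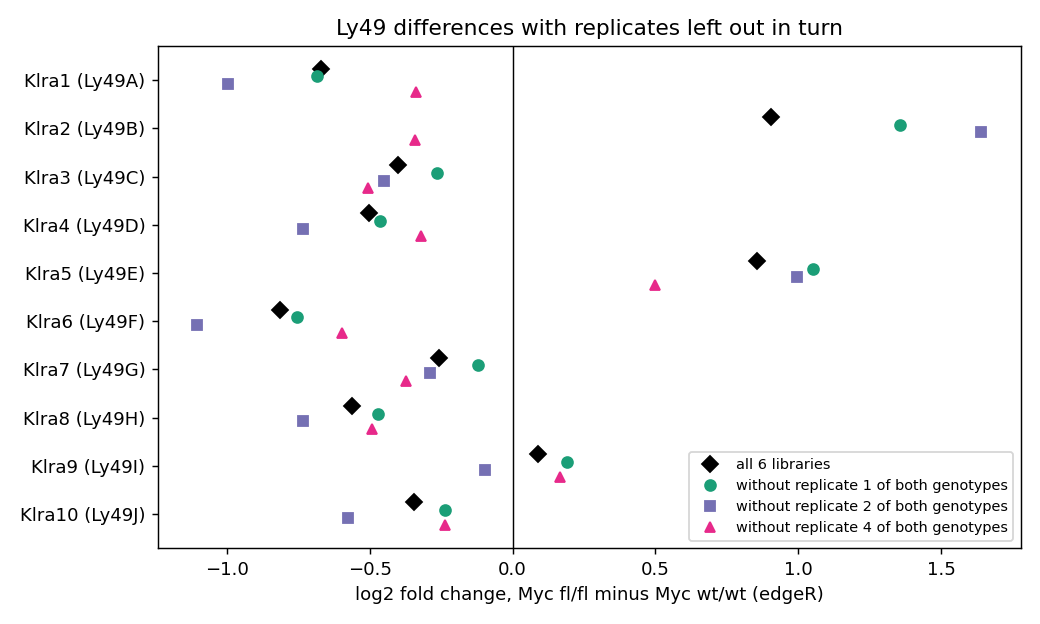
Log2 fold change of Myc fl/fl against Myc wt/wt (horizontal axis; edgeR) of each Ly49 gene with all 6 libraries (black) and without replicate 1, 2 or 4 of both genotypes. Klra1, Klra3, Klra4, Klra6, Klra7, Klra8 and Klra10 lie farther below 0 without replicate 2. Klra2 crosses 0 without replicate 4, and Klra9 crosses 0 without replicate 2.

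Summed over the 10 genes, the Ly49 family took 0.274%, 0.234% and 0.253% of all counts in the wt/wt group. Its share was 0.199%, 0.219% and 0.184% in fl/fl, below every wt/wt library. The 95% Wilson interval was 0.271% to 0.278% in wt/wt library 1, the shallowest, and was narrower in the others; such intervals cover counting error only. The mean share was 0.254 ± 0.020% in wt/wt and 0.201 ± 0.018% in fl/fl (SD, n = 3), so that fl/fl held 79.1% of the wt/wt share, a log2 ratio of −0.34. In TPM the log2 ratio was −0.28. Most of the sum came from Klra7, Klra4 and Klra8. The 3 genes whose level followed the family's summed CPM most closely over the 6 libraries, among 8780 compared, were Qdpr (Pearson r = 0.998), Parl (r = 0.997) and Drg1 (r = 0.997), and with 6 libraries of differing depth this likeness is a description.

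Klra17, which encodes Ly49Q, a receptor known from plasmacytoid dendritic cells, was the only other gene with a Klra symbol in the tables. It stood at 13.6, 13.9 and 10.6 CPM in wt/wt and at 7.15, 10.3 and 8.17 CPM in fl/fl libraries, without overlap, and with a log2 fold change of −0.57 ± 0.22 (SE; edgeR adjusted p = 0.155). The summed level of the plasmacytoid dendritic cell markers, with Tcf4, Cox6a2 and Bst2 the most abundant over all 6 libraries, ran from 93.0 to 119 CPM in wt/wt and from 144 to 165 CPM in fl/fl libraries. Siglech (log2 fold change 1.61 ± 0.24, SE; edgeR adjusted p = 0.00564) and Ly6d (2.14 ± 0.33, SE; edgeR adjusted p = 0.0063) were the 2 of its 7 genes past the threshold. The log2 fold change of Cox6a2 was −0.41 ± 0.22 and that of Bst2 0.07 ± 0.24 (SE).

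The genes around the receptors were examined as 4 lists of 70 genes in all, and 0 passed the threshold (DESeq2 placed 1 past it as lower and 4 as higher), while 4 were below an adjusted p of 0.05 (5.71%, against 7.83% of all tested genes) and 23 had an unadjusted p below 0.05 (32.9%, against 22.5%). Of 22 signalling genes, 8 were lower and 14 higher in fl/fl, with a median log2 fold change of 0.14. Plcg1, a phospholipase of activating signalling, rose from between 4.41 and 4.68 CPM to between 8.01 and 13.3 CPM at the looser limit, with a log2 fold change of 1.10 ± 0.26 (SE; edgeR adjusted p = 0.0328). Pik3cd, a lipid kinase subunit, had a log2 fold change of 0.50 ± 0.14 (SE; edgeR adjusted p = 0.0554). Ptpn6, which encodes SHP-1 and is named for its role, had a log2 fold change of 0.16 ± 0.13 (SE; edgeR adjusted p = 0.537).

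Of 12 genes for MHC class I molecules and their loading, the ligand side of the receptors, 6 were lower and 6 higher, with a median log2 fold change of −0.02. Tapbp, the loading factor tapasin, had a log2 fold change of 0.42 ± 0.13 (SE; edgeR adjusted p = 0.0828), and Pdia3, a chaperone of the same complex, −0.45 ± 0.17 (SE; edgeR adjusted p = 0.140). Of 20 transcription factors of NK cell maturation and Ly49 expression, 3 were lower and 17 higher, with a median log2 fold change of 0.19. Tox, needed early in NK cell development, rose at the looser limit from between 127 and 140 CPM to between 182 and 206 CPM, with a log2 fold change of 0.51 ± 0.13 (SE; edgeR adjusted p = 0.0426). Runx1 had a log2 fold change of 0.47 ± 0.13 (SE; edgeR adjusted p = 0.0572). Tcf7, a factor known to act on Ly49 genes and named for that role, had a log2 fold change of 0.11 ± 0.16 (SE; edgeR adjusted p = 0.764).

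The other lectin-like receptors of the NK gene complex, on the same chromosome, served as the nearest comparison. Of 16 such genes, 8 were lower and 8 higher, with a median log2 fold change of −0.01, against −0.37 for the Ly49 members. Cd69, an early activation marker, rose at the looser limit from between 298 and 390 CPM to between 447 and 652 CPM, with a log2 fold change of 0.71 ± 0.14 (SE; edgeR adjusted p = 0.0177). Clec2i, a ligand of an Nkrp1 receptor, fell at that limit from between 71.2 and 118 CPM to between 42.6 and 58.6 CPM, with a log2 fold change of −0.77 ± 0.17 (SE; edgeR adjusted p = 0.0279). The difference between the lists was not tested. Among the maturation markers, 1 of 7 mature and 1 of 7 immature genes passed the threshold. S1pr5, a receptor for leaving the BM, fell by 1.18 on the log2 scale (SE 0.17, edgeR adjusted p = 0.0054). Kit, a receptor of immature cells, rose by 1.26 (SE 0.19, edgeR adjusted p = 0.00559). It stood at 84.3, 63.6 and 83.4 CPM in wt/wt and at 241, 188 and 134 CPM in fl/fl libraries. The part in Kit of the other cell types, whose markers were also higher in fl/fl, was not tested. Gzmb, of the mature list, was higher in fl/fl at the looser limit, with a log2 fold change of 1.73 ± 0.37 (SE; edgeR adjusted p = 0.0216).

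The promoters of the members share sequence as well. All 10 matched the RefSeq table of GRCm38.p6, which holds the 250 bases before and 50 bases after each gene's start. The 10-base runs before the start that most members held were found in 7 members each, and CAATTTCCTC was the first of 4 such runs by letters. The run was chosen after the sequences were seen, and on both strands it was present in 0.125% of all 32851 windows. It occurred in Klra2, Klra3, Klra4, Klra5, Klra6, Klra8 and Klra9, and not in the windows of Klra1, Klra7 and Klra10. The 42 bases around it are shown for 4 of them, with the run in capitals, since they include members lower and higher in fl/fl. They lie on the minus strand at chr6:130067332-130067373 (Klra4), chr6:130129960-130130001 (Klra8), chr6:130027055-130027096 (Klra6) and chr6:129913296-129913337 (Klra5).
Klra4: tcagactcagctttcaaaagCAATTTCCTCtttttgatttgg
Klra8: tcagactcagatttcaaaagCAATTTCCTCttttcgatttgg
Klra6: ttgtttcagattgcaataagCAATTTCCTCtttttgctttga
Klra5: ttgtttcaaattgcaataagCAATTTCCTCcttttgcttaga

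The run was thus common to Klra6, with the largest negative difference, and Klra5, with a positive one. The E-box CACGTG, the letters that MYC and its partner MAX are known to bind, was present in 0 of the 10 members' windows and in 7.15% of all windows. The RUNX core TGTGGT was present in 1 member (Klra1) and 16.8% of windows, and the TCF/LEF core CTTTGA in 2 members (Klra6 and Klra7) and 16% of windows. These counts describe letters in the windows and draw nothing about binding.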

How the data were processed

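RNA of sorted CD27SP NK cells was amplified with the SMART-Seq v4 kit with polyA selection and sequenced as single-end 100-base reads. For each library the authors deposited estimated counts, which are not normalized, TPM values and effective lengths for 100583 transcripts. The columns are those of kallisto, whereas the submitters' processing notes name Salmon and GRCh38, and the identifiers are those of mouse transcripts.

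Counts of all transcripts of a symbol in GENCODE M21 (100239 transcripts matched) were added up and rounded. After filterByExpr (15474 genes left) and TMM scaling, the genotypes were tested with edgeR's quasi-likelihood method (4.0.16; R 4.3.3), blocked by replicate number, since the paper calls its analyses paired. DESeq2 (1.42.0) and limma-trend (3.58.1) were alternatives. CPM values use TMM factors. Libraries of 1 genotype differed by more than counting noise (chi-square per degree of freedom 39.4 to 100.1). The labels give no batch.

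The text names all members, Klra17, Myc, genes past the threshold in a list or otherwise its 2 smallest adjusted p, the 3 most abundant genes (by mean over all libraries) of a marker list given, and the 3 genes most like the family. Other genes are named for a role or, where stated, after their values were seen. The members and lists were chosen with earlier results of these data known.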

Additional observations from a re-analysis of the deposited data

How the results depend on the processing

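Over the 19 alternative settings, 0 members passed the threshold in either direction, and over the 17 of them that refitted the data 165 of 169 differences of members kept their direction and their side of the threshold (the other 2 settings reuse the reported fold changes). The 4 reversed values were those of Klra2 (−0.34 without replicate 4, and −0.25 without fl/fl replicate 4 and no replicate block) and Klra9 (−0.10 without replicate 2, and −0.014 without fl/fl replicate 2 and no replicate block); the cause was not tested. Without each replicate number in turn, Klra2 ran from −0.34 to 1.64 and Klra9 from −0.10 to 0.19. With at least 10 counts in every library Klra2 gave no value. At an adjusted p below 0.05, the number of members was 0 in the fit as reported. It was 4 with DESeq2 and with no filter on low counts (Klra1, Klra5, Klra6 and Klra8). Without replicate 2 of both genotypes it was 4 as well (Klra1, Klra4, Klra6 and Klra8). It was 2 without wt/wt replicate 2 and no replicate block (Klra1 and Klra6). With no replicate block it was 1 (Klra6), and with at least 10 counts in every library it was 1 (Klra8). Leaving out each replicate number in turn placed 0 members past the threshold, and 0 to 2 pathway list genes as lower, and moved the log2 ratio of the family's share of counts between −0.46 and −0.27. Of the 70 pathway list genes, 2 passed as lower without replicate 4, 1 without fl/fl replicate 4 and no replicate block, 1 with DESeq2, 1 with no filter on low counts and 1 at an adjusted p below 0.05 with no fold change limit. As higher, 4 passed with DESeq2, 1 with no filter and 3 at the looser limit. The replicate numbers were not shown to pair the libraries: the correlation of deviations from the genotype means between same-numbered libraries was 0.00177, −0.0883 and 0.0912 for numbers 1, 2 and 4, and without the replicate block 0 members and 0 pathway list genes passed the threshold. Klra2 and Klra5 rest on the fewest counts in wt/wt library 1, which holds 8101219 counts in all. With no replicate block, their log2 fold changes were 1.43 and 0.96. Without wt/wt library 1 they were 1.46 and 0.89, and without fl/fl library 4 they were −0.25 and 0.39.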

Other observations

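The tables split 6 members over several transcripts, and the related Klra17 as well. For Klra17 the split was uneven: in wt/wt library 1 its transcript Klra17-201 held 91.9 estimated counts and Klra17-202 held 13.1, while in wt/wt library 2 they held 93.6 and 693, and in fl/fl library 4 they held 0 and 488. Klra7-204 held at most 1.6 estimated counts in any library, while Klra7-202 held between 4079 and 42606. Klra5-204 held 231 estimated counts in fl/fl library 4 and between 0 and 24.6 in the other 5 libraries. The 479-base Klra1-202, annotated as a retained intron, held 147, 621 and 1482 estimated counts in wt/wt libraries 1, 2 and 4, beside 998, 5368 and 13114 for Klra1-201.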
